A study of Rattus norvegicus with 30 samples.

Results

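Corticosteroid signalling was followed in the kidneys of male SHRSP pups through 7 genes, namely the receptors Nr3c1 and Nr3c2, the enzymes Hsd11b1 and Hsd11b2, and the target genes Sgk1, Fkbp5 and Tsc22d3. The genes were taken by symbol: every probe set annotated with 1 of these symbols alone was used, which gave 9 of 31042 probe sets, with 1 probe set for 5 genes and 2 probe sets for Nr3c1 and Fkbp5. For each gene the probe set that was brightest on average led, and any other one served as a check. SHRSP is the stroke-prone spontaneously hypertensive rat, and all pups in all groups were of this strain, so no normotensive strain stood beside them. Kidney RNA was hybridised to GeneChip rat genome arrays, 5 arrays in each of 6 groups. The LP groups (D5-LP, D10-LP and D28-LP) came from dams given a low-protein diet with 9% casein in pregnancy, and the CN groups (D5-CN, D10-CN and D28-CN) from dams given a control diet with 20% casein. All dams received a commercial diet after delivery, and pups were killed on postnatal day 5, 10 or 28. The labels call the 5 arrays of a group biological replicates while the methods speak of pooled RNA of each group, and litters are not given, so p-values measure only the spread between arrays, which may be technical.

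Glucocorticoids act through a pair of nuclear receptors. The glucocorticoid receptor, the product of Nr3c1, is found in nearly every cell and switches on genes such as Fkbp5 and Tsc22d3 when hormone is bound. The mineralocorticoid receptor, the product of Nr3c2, mediates the effect of aldosterone on sodium reabsorption in the distal nephron and also binds glucocorticoids tightly. The enzyme encoded by Hsd11b2 inactivates corticosterone in the aldosterone target cells and so leaves that receptor to aldosterone, whereas the enzyme encoded by Hsd11b1 mainly regenerates active glucocorticoid. Sgk1 encodes a kinase that raises the activity of the epithelial sodium channel and is induced through either receptor.

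Promoter windows of the 3 target genes are shown because these genes moved together in the kidneys of D28. The windows, from RefSeq on the build GRCr8, run 5′ to 3′ over 250 bases before and 50 after an annotated start, and capitals mark the TATA box motif TATAAA on the strand of the gene. Of the 7 genes, 4 matched the table with 9 windows in all. The Sgk1 window shown lies at chr1:24804782-24805081 on the minus strand, the Fkbp5 window at chr20:6543506-6543805 on the minus strand and the Tsc22d3 window shown at chrX:109009985-109010284 on the minus strand.
Sgk1: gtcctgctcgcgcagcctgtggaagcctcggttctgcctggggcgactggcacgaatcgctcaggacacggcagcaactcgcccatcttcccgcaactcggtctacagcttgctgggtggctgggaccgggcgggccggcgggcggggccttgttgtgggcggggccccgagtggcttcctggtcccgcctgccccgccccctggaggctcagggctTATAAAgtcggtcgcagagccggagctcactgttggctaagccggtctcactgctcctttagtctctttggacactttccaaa
Fkbp5: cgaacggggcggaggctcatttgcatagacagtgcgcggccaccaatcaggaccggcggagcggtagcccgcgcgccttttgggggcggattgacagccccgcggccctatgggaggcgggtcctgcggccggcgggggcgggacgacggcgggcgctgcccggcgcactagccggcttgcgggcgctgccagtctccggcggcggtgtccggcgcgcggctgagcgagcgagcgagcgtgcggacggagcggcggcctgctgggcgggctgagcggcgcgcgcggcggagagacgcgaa
Tsc22d3: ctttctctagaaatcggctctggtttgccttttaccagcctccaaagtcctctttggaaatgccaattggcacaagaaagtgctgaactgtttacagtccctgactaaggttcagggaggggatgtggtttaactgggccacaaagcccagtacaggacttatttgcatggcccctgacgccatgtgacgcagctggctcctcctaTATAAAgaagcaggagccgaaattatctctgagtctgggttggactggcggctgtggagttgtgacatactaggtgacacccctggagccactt
Of the 3 windows each of Sgk1 and Tsc22d3, the one shown was chosen among those that hold the TATA motif, which 2 windows of Sgk1 and 1 of Tsc22d3 do. Counted from the start, the motif begins at −33 in the Sgk1 window shown and at −44 in the Tsc22d3 window shown, and on either strand it occurs in 14.2% of 33469 windows of 300 bases. The Fkbp5 window holds no TATA motif and is rich in CG pairs, with 52 against a median of 7 over all windows, and 77.0% of its bases are G or C. The receptor motif TGTTCT, searched on both strands, was found in 0 of the 9 windows of these genes and in 20.7% of all windows. The full palindrome, which is AGAACA and TGTTCT with any 3 bases between, was found in 0 of the 9 windows and in 5 of all 33469 windows, and it contains the shorter motif on both strands. A match describes letters only, and its absence from these short windows says nothing of binding elsewhere.

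All values below are log2 expression values as deposited. Arrays of 1 group correlated at 0.983 to 0.998 over all probe sets, and 0 pairs held identical values. Array means were 6.93 to 6.94 at D5 and 6.86 to 6.87 at D10 and D28. Whether the ages were normalized together is not given in the sources used here, so a difference between ages cannot be told apart from a difference between the array batches of those ages. Levels of the 7 genes were not compared with each other, since probe sets differ in brightness. Kidney markers were bright, with a proximal tubule marker mean between 10.6 and 11.9 on the 30 arrays. The adrenal cortex mean lay between 4.40 and 5.22, with Cyp11b1, the last enzyme of corticosterone synthesis, at 3.38 to 3.69 in the group means. Dim probe sets can also read low. The adipose tissue marker mean was 5.57 to 5.89 at D5 and 6.18 to 6.79 at D28. At D10 it was 6.45 to 8.13 in LP and 6.77 to 7.31 in CN. Its part in the differences between ages and diets was not tested. In whole kidney RNA, fewer cells of a type and less RNA per cell cannot be told apart.

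**Figure D1:**
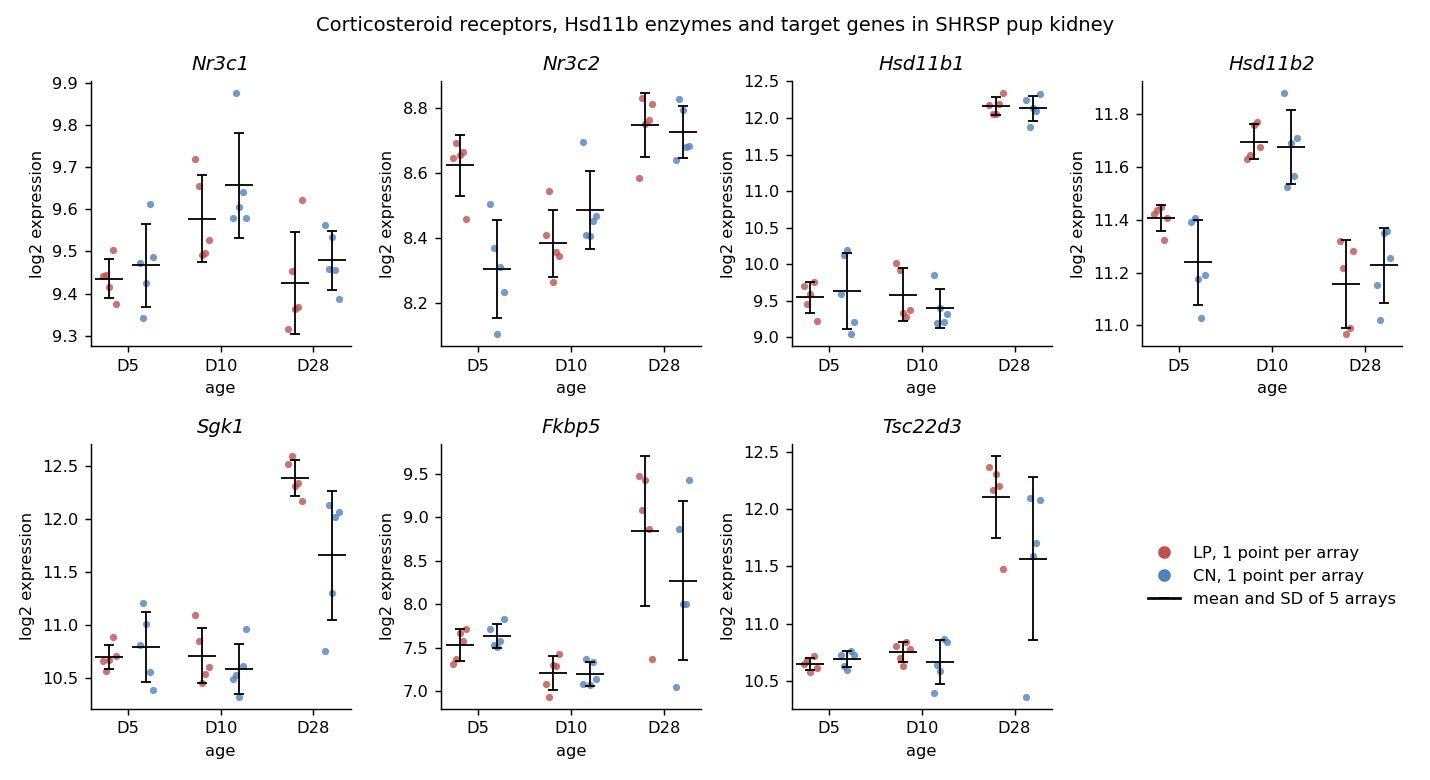
Log2 expression (vertical axis) of the 7 genes by age (horizontal axis), with 1 point per array, LP in red left of CN in blue, and bars for the mean and SD of 5 arrays. Hsd11b1, Sgk1, Fkbp5 and Tsc22d3 lay higher at D28 than at D10 in both diets, Hsd11b2 was highest at D10, and the points of Sgk1 at D28 do not overlap between the diets (12.17 to 12.59 in LP, 10.76 to 12.13 in CN).

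With age, the largest change among the 7 genes was the rise of Hsd11b1 between D10 and D28. Sgk1, Fkbp5 and Tsc22d3 rose over the same interval, Nr3c2 rose by a small amount, and Hsd11b2 and Nr3c1 fell. These steps were seen in both diets. By limma, fitted over all 31042 probe sets with Benjamini-Hochberg adjustment and called at an adjusted p under 0.05, D28 minus D10 gave 5 genes higher and 2 lower in LP, beside 31.1% of all probe sets called higher and 28.8% called lower. In CN the counts were also 5 higher and 2 lower, beside 31.5% and 28.9% of all probe sets. Between D5 and D10 few genes moved, with 1 higher and 1 lower in LP (11.2% and 28.7% of all probe sets) and 3 higher and 0 lower in CN (14.3% and 30.3%). Over the whole interval, D28 minus D5, 4 were higher and 1 lower in LP (28.2% and 36.6%), and 4 were higher and 0 lower in CN (29% and 35.6%). The counts called higher at D28 lay above the share of all probe sets, as did the 3 of 7 called higher at D10 in CN, while the 2 of 7 called lower from D10 to D28 lay near it and the other counts called lower lay below it.

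Nr3c1, the glucocorticoid receptor gene (chr18:31522783-31644508 on GRCr8), varied least with age. Its level was 9.44 ± 0.05 in D5-LP and 9.47 ± 0.10 in D5-CN, 9.58 ± 0.10 in D10-LP and 9.66 ± 0.13 in D10-CN, and 9.42 ± 0.12 in D28-LP and 9.48 ± 0.07 in D28-CN (SD, n = 5 each). All 5 steps between neighbours in this order of levels were smaller than the larger SD of the pair, and all neighbours overlapped. Nr3c1 was higher at D10 than at D5 by 0.19 ± 0.06 (SE) in CN (limma adjusted p = 0.0181) and by 0.14 ± 0.06 in LP, which did not pass the threshold (adjusted p = 0.0790). The fall to D28 was −0.18 in CN (adjusted p = 0.0189) and −0.15 in LP (adjusted p = 0.0415). These calls rested on single arrays: the rise in CN was lost without D10-CN replicate 2, at 0.13 (adjusted p = 0.0857), or D5-CN replicate 2, at 0.16 (adjusted p = 0.0612). With each array centred on its median the falls were −0.11 in LP and −0.14 in CN and neither was called (adjusted p = 0.144 and 0.0681), while the rise to D10 in LP was called at 0.18 (adjusted p = 0.0310). The fall in CN was lost without D10-CN replicate 2 (adjusted p = 0.0914) or D28-CN replicate 5 (adjusted p = 0.0548), and the fall in LP was lost in 6 of the 10 fits that left out 1 array, namely without D10-LP replicate 1 or 2 or D28-LP replicate 1, 2, 3 or 4 (difference −0.12 to −0.16). The other Nr3c1 probe set was dim, at the 23.0th percentile of all probe sets, and did not fall from D10 to D28, with −0.02 in LP and 0.24 in CN (adjusted p = 0.867 and 0.0461).

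Nr3c2, the mineralocorticoid receptor gene (chr19:47619853-47964089), lay highest at D28 in both diets. It was 8.62 ± 0.09 in D5-LP and 8.30 ± 0.15 in D5-CN, 8.38 ± 0.10 in D10-LP and 8.49 ± 0.12 in D10-CN, and 8.75 ± 0.10 in D28-LP and 8.73 ± 0.08 in D28-CN. In the order of these 6 means, only the steps from D10-CN up to D5-LP and from D5-LP up to D28-CN exceeded the larger SD of the pair, and arrays of every neighbouring pair overlapped. From D10 to D28 Nr3c2 rose by 0.37 ± 0.07 in LP (limma adjusted p = 6.73e-05) and by 0.24 ± 0.07 in CN (adjusted p = 0.00455). Between D5 and D10 Nr3c2 fell by 0.24 ± 0.07 in LP (adjusted p = 0.00799) and rose by 0.18 ± 0.07 in CN (adjusted p = 0.0378). The rise in CN lost its call in 4 of the fits without 1 array, namely without D5-CN replicate 3, 4 or 5 or D10-CN replicate 1, with adjusted p = 0.0540 to 0.139, and also with array weights (adjusted p = 0.0988) or with only the 2 groups fitted (adjusted p = 0.111). The difference between the diets in this step was not called (diet by age adjusted p = 0.787). With quantile normalization the fall in LP was −0.17 and not called (adjusted p = 0.0653).

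Hsd11b1, the reductase that forms active corticosterone, is known from the proximal tubule of the rat kidney (chr13:107277526-107327462). Its level was 9.55 ± 0.21 in D5-LP and 9.63 ± 0.52 in D5-CN, 9.59 ± 0.36 in D10-LP and 9.40 ± 0.27 in D10-CN, and 12.16 ± 0.12 in D28-LP and 12.13 ± 0.17 in D28-CN. The gene thus had 1 step only: the 10 arrays of D28 lay between 11.87 and 12.34, and the 20 arrays of D5 and D10 between 9.05 and 10.19. D28 minus D10 was 2.58 ± 0.18 in LP (SE, a 5.97-fold change, limma adjusted p = 1.36e-12) and 2.74 ± 0.18 in CN (6.66-fold, adjusted p = 4.05e-13). At D5 and D10 the arrays of a group were spread widely, with D5-CN replicates 2 and 3 at 10.13 and 10.19 and replicate 4 at 9.05. The proximal tubule marker mean of these arrays was 11.51, 11.49 and 10.61. D10-LP replicates 1 and 2 and D10-CN replicate 1 were the highest D10 arrays for Hsd11b1 (10.02, 9.92 and 9.85). They were also the highest for this marker mean (11.52, 11.62 and 11.68), and its part in the spread was not tested. The genes whose levels over the 30 arrays were most like it were Gstt3 (r = 0.993), Agmat (r = 0.992) and Pyroxd2 (r = 0.990), and with the group means removed the correlations were 0.835, 0.929 and 0.873. Agmat encodes agmatinase and Gstt3 a glutathione transferase, and 20553 probe sets were compared.

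Hsd11b2, which protects the mineralocorticoid receptor in the distal nephron (chr19:50307569-50312812), was highest at D10. It was 11.41 ± 0.05 in D5-LP and 11.24 ± 0.16 in D5-CN, 11.70 ± 0.07 in D10-LP and 11.67 ± 0.14 in D10-CN, and 11.16 ± 0.17 in D28-LP and 11.23 ± 0.14 in D28-CN. In the order of the 6 means, the steps from D5-CN up to D5-LP and from D5-LP up to D10-CN exceeded the larger SD of the pair. The arrays of D10 lay between 11.52 and 11.88 and overlapped neither those of D5, which reached 11.45, nor those of D28, which reached 11.36. From D5 to D10 Hsd11b2 rose by 0.29 ± 0.08 in LP (limma adjusted p = 0.00544) and by 0.44 ± 0.08 in CN (adjusted p = 8.18e-05). From D10 to D28 it fell by 0.54 ± 0.08 in LP (adjusted p = 1.72e-06) and by 0.45 ± 0.08 in CN (adjusted p = 2.76e-05). The 2 enzyme genes therefore moved in opposite directions after D10. Mos, Mbp and Kcnip1 had the levels most like Hsd11b2 over the 30 arrays (r = 0.866, 0.863 and 0.862), and with the group means removed these fell to 0.432, 0.454 and 0.169.

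The target genes Sgk1 (chr1:24799391-24916886), Fkbp5 (chr20:6458931-6577227) and Tsc22d3 (chrX:109006410-109066389) shared a rise at D28. From D5 to D10 Sgk1 and Tsc22d3 differed by −0.21 to 0.11, while Fkbp5 was lower at D10. Sgk1 was 10.70 ± 0.12 in D5-LP and 10.79 ± 0.33 in D5-CN, 10.71 ± 0.26 in D10-LP and 10.58 ± 0.24 in D10-CN, and 12.39 ± 0.17 in D28-LP and 11.65 ± 0.60 in D28-CN. Fkbp5, which encodes an immunophilin that lowers the hormone affinity of the glucocorticoid receptor, was 7.53 ± 0.18 in D5-LP and 7.63 ± 0.13 in D5-CN, 7.21 ± 0.20 in D10-LP and 7.20 ± 0.14 in D10-CN, and 8.84 ± 0.86 in D28-LP and 8.27 ± 0.91 in D28-CN. Tsc22d3, which encodes the anti-inflammatory protein GILZ, was 10.65 ± 0.05 in D5-LP and 10.69 ± 0.07 in D5-CN, 10.75 ± 0.08 in D10-LP and 10.67 ± 0.19 in D10-CN, and 12.10 ± 0.36 in D28-LP and 11.57 ± 0.71 in D28-CN. In the order of means, the steps beyond the larger SD of the pair were those from D5-CN up to D28-CN and on to D28-LP for Sgk1, from D10-LP up to D5-LP for Fkbp5, and from D10-LP up to D28-CN for Tsc22d3. No step from D5 to D10 passed the threshold for these 3 genes in either diet (limma adjusted p = 0.263 to 0.967). The Fkbp5 difference of −0.32 in LP and −0.44 in CN, where the arrays of D10 (7.07 to 7.37) did not overlap those of D5 (7.51 to 7.83), passed when only the arrays of the compared groups were fitted (adjusted p = 0.0310 and 0.00225), a fit without the widely spread arrays of D28.

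From D10 to D28 Sgk1 rose by 1.68 ± 0.19 in LP (SE, 3.20-fold, limma adjusted p = 2.28e-08) and by 1.07 ± 0.19 in CN (2.10-fold, adjusted p = 2.80e-05). Fkbp5 rose by 1.64 ± 0.31 in LP (adjusted p = 5.79e-05) and by 1.07 ± 0.31 in CN (adjusted p = 0.00429). Tsc22d3 rose by 1.35 ± 0.20 in LP (adjusted p = 1.54e-06) and by 0.90 ± 0.20 in CN (adjusted p = 0.000348). The other Fkbp5 probe set gave 2.21 in LP and 1.85 in CN for the same step. On the lead probe sets not every CN array took part in the rise. D28-CN replicate 1 stood at 10.76 for Sgk1, 7.05 for Fkbp5 and 10.36 for Tsc22d3. These levels were within the range of the earlier ages, or below it for Tsc22d3, whose lowest earlier array was 10.40. In LP the lead Fkbp5 level of D28-LP replicate 5, 7.37, was also within the range of the earlier ages. The other Fkbp5 probe set differed, with 6.35 on D28-LP replicate 5 and 6.63 on D28-CN replicate 1. These values lay above its highest array of the earlier ages, D5-CN replicate 5 at 6.11.

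The arrays of D28 were widely spread for the targets. With both diets pooled within their groups, the SD at D28 was 0.89 for Fkbp5, a value exceeded by 0.0483% of all probe sets, 0.56 for Tsc22d3 (0.445%) and 0.44 for Sgk1 (1.37%), beside a median of 0.118 over all probe sets. At D5 Tsc22d3 was among the tighter genes, with an SD of 0.063 that 91.4% of probe sets exceeded. Hsd11b1 ran the other way, with an SD of 0.40 at D5 (exceeded by 0.976% of probe sets), 0.32 at D10 and 0.15 at D28. The receptors and Hsd11b2 stayed between 0.077 and 0.155 at all ages.

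**Figure D2:**
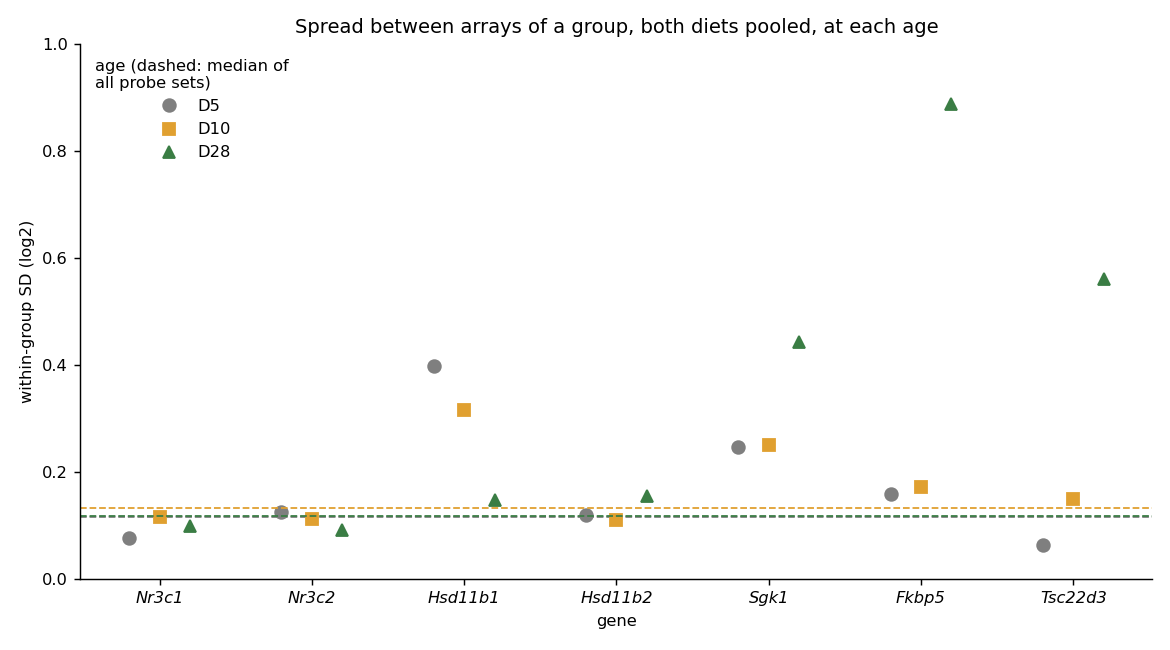
Within-group SD of the log2 values (vertical axis) for each gene (horizontal axis) at D5, D10 and D28, with dashed lines for the median of all probe sets at each age. Fkbp5 (0.89), Tsc22d3 (0.56) and Sgk1 (0.44) stand far above the median of 0.118 at D28, and Hsd11b1 (0.40) stands above it at D5.

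Within D28 the 3 target genes were high and low on the same arrays. Fkbp5 was 9.48, 9.08, 9.43, 8.86 and 7.37 in D28-LP replicates 1 to 5, against 7.05, 8.86, 8.00, 8.00 and 9.43 in D28-CN replicates 1 to 5. Tsc22d3 was 12.36, 12.17, 12.31, 12.20 and 11.48 in the same LP arrays, against 10.36, 12.09, 11.59, 11.70 and 12.08 in the CN arrays. D28-CN replicate 1 was the lowest of its group for both genes and for Sgk1, and D28-LP replicate 5 the lowest of its group for all 3 genes. With group means removed, Fkbp5 and Tsc22d3 correlated over the 10 arrays at r = 0.892 (exact permutation within groups, p = 0.000903, adjusted over 63 pairs and ages p = 0.0284). The rho was 0.903 (exact permutation p = 0.00153, adjusted p = 0.0481). The r was 0.813 once the 2 arrays farthest from the median in Fkbp5 were set aside. For every pair the 2 farthest arrays were those of the gene named first, with group means removed, so they can differ between pairs. Sgk1 and Tsc22d3 gave r = 0.874 (exact permutation p = 0.00340, adjusted p = 0.0536; rho = 0.830, p = 0.0184, adjusted p = 0.193), and r fell to 0.606 without the 2 farthest arrays. Sgk1 and Fkbp5 gave r = 0.715 (exact permutation p = 0.0199, adjusted p = 0.139; rho = 0.721, p = 0.0428, adjusted p = 0.286), and 0.556 without the 2 farthest arrays.

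On the lead probe sets, Nr3c1 ran opposite to Fkbp5 and Tsc22d3 on these arrays, over a much narrower range of 9.32 to 9.62. Lead Nr3c1 was highest of its group on D28-LP replicate 5 and D28-CN replicate 1, at 9.62 and 9.56. The other, dim Nr3c1 probe set was 5.15 and 5.10 there, inside its ranges of 5.04 to 5.45 in D28-LP and 4.97 to 5.52 in D28-CN. Relations of that probe set were not tested. Nr3c1 and Fkbp5 gave r = −0.885 (exact permutation p = 0.00181, adjusted p = 0.0379; rho = −0.855, p = 0.00306, adjusted p = 0.0642), and −0.674 without the 2 farthest arrays. Nr3c1 and Tsc22d3 gave r = −0.745 (exact permutation p = 0.000486, adjusted p = 0.0284; rho = −0.782, p = 0.00681, adjusted p = 0.107), and −0.529 without the 2 farthest arrays, so both relations weakened when these arrays were left out. Nr3c1 and Sgk1 gave r = −0.558 (exact permutation p = 0.0233, adjusted p = 0.147; rho = −0.515, p = 0.102, adjusted p = 0.419), and −0.340 without the 2 farthest arrays, which did not pass. Of 21 pairs at D28, 3 passed 0.05 after adjustment by r and 1 of these also by rho, and of 21 pairs each at D5 and D10, 0 passed by r. At D10 Nr3c1 and Hsd11b2 passed by rho alone, at −0.915 (exact permutation p = 0.000278, adjusted p = 0.0175), with r = −0.748 (p = 0.0194, adjusted p = 0.139) and −0.630 without the 2 farthest arrays.

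**Figure D3:**
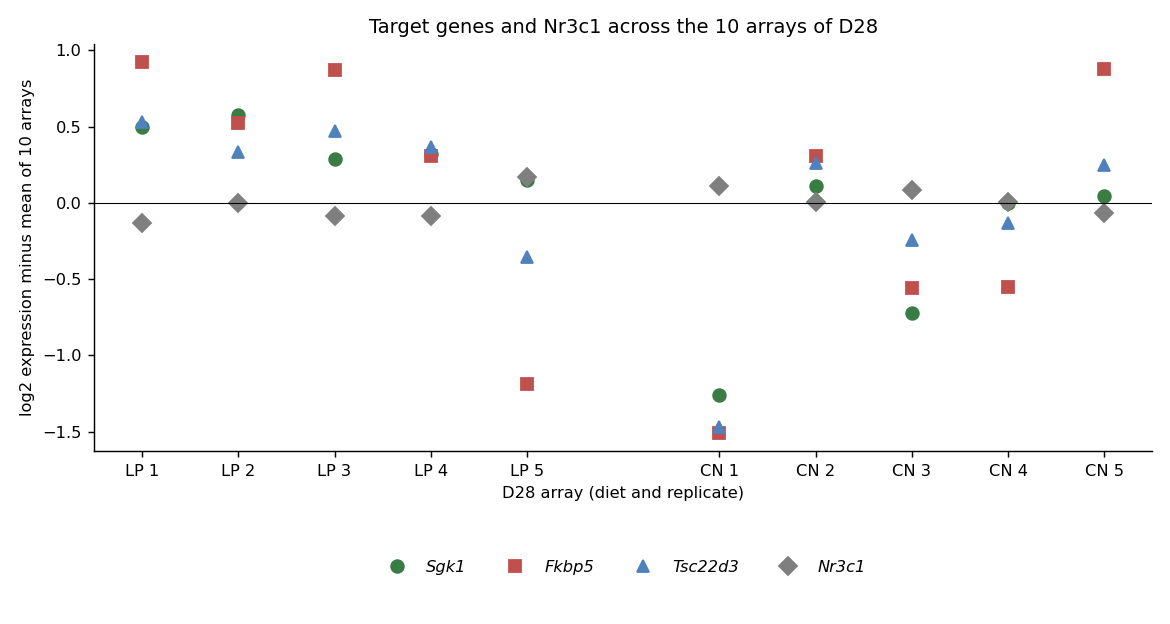
Log2 expression minus the mean of the 10 arrays (vertical axis) of Sgk1, Fkbp5, Tsc22d3 and Nr3c1 on each D28 array (horizontal axis), LP left and CN right. CN 1 is low for all 3 targets, LP 5 is low for Fkbp5 and Tsc22d3, and Nr3c1 varies little, between 9.32 and 9.62.

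Other measures of these arrays were set beside the targets. The medulla minus cortex score, a difference of the means of 9 inner medulla and 9 cortex marker genes, was −0.79 to 0.54 on the D28-LP arrays and −1.08 to 0.21 on the D28-CN arrays, and the lowest value was that of D28-CN replicate 1. Over the 10 arrays with group means removed its correlation was 0.375 with Sgk1, 0.457 with Fkbp5 and 0.545 with Tsc22d3 (rho = 0.309, 0.285 and 0.430), with exact permutation p = 0.318, 0.225 and 0.114, or 0.667, 0.591 and 0.400 after adjustment over 42 relations. Without the 2 arrays farthest on this score these were 0.320, 0.288 and 0.465. For Hsd11b2 the correlation with this score was −0.780 (rho = −0.770, exact permutation p = 0.0192 and 0.0217, adjusted p = 0.231 and 0.310), and −0.479 without the 2 farthest arrays. None of the 42 relations of a gene with this score, or with the excess of 3′ over 5′ signal of the control transcripts, passed 0.05 after adjustment.

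The genes with levels most like the targets over all 30 arrays were sought among the same 20553 probe sets. For Sgk1 these were Herpud1 (r = 0.933), Sult1a1 (0.933) and Cebpd (0.924), with 0.731, 0.716 and 0.710 once group means were removed. For Fkbp5 they were Tbc1d14 (0.918), the deubiquitinase gene Usp2 (0.895) and Tmem39b (0.891), with 0.833, 0.775 and 0.812 within groups. Tsc22d3 was most like Pnp (0.936), Gigyf2 (0.935) and the inositol transporter gene Slc5a3 (0.934), itself an inner medulla marker of the score, with 0.800, 0.719 and 0.726 within groups. For the receptors the best values were lower, 0.754 for Nr3c1 with Dnaaf9 and 0.808 for Nr3c2 with Pik3ap1.

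Maternal diet was compared at each age to ask whether the kidney of LP pups differed in these genes. By limma none of the 7 genes was called at an adjusted p under 0.2, the study's threshold for its arrays, at D5, D10 or D28, where 0.00644%, 0% and 0% of all probe sets were called. At an unadjusted p under 0.05, 2 genes stood out at D5 (Nr3c2 and Hsd11b2), 0 at D10 and 1 at D28 (Sgk1), beside 8.19%, 5.02% and 6.09% of all probe sets. The rank products of the study's methods, recomputed here at a false discovery rate under 0.2, called 1 gene at D5 (Nr3c2), 0 at D10 and 3 at D28 (Sgk1, Fkbp5 and Tsc22d3), beside 2.14%, 0.77% and 3.04% of all probe sets. Their false discovery rate comes from shuffling values over probe sets within each array. It does not weigh a gene's own spread between arrays. At D28 Fkbp5 and Tsc22d3, both widely spread (SD 0.89 and 0.56), had exact permutation p = 0.365 and 0.143. Averaged over the 3 ages limma called 0 of the 7 genes (0.312% of all probe sets), with Sgk1, the only one with an unadjusted p under 0.05 (11.4% of all probe sets), at 0.25 ± 0.11 (SE, adjusted p = 0.387).

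**Figure D4:**
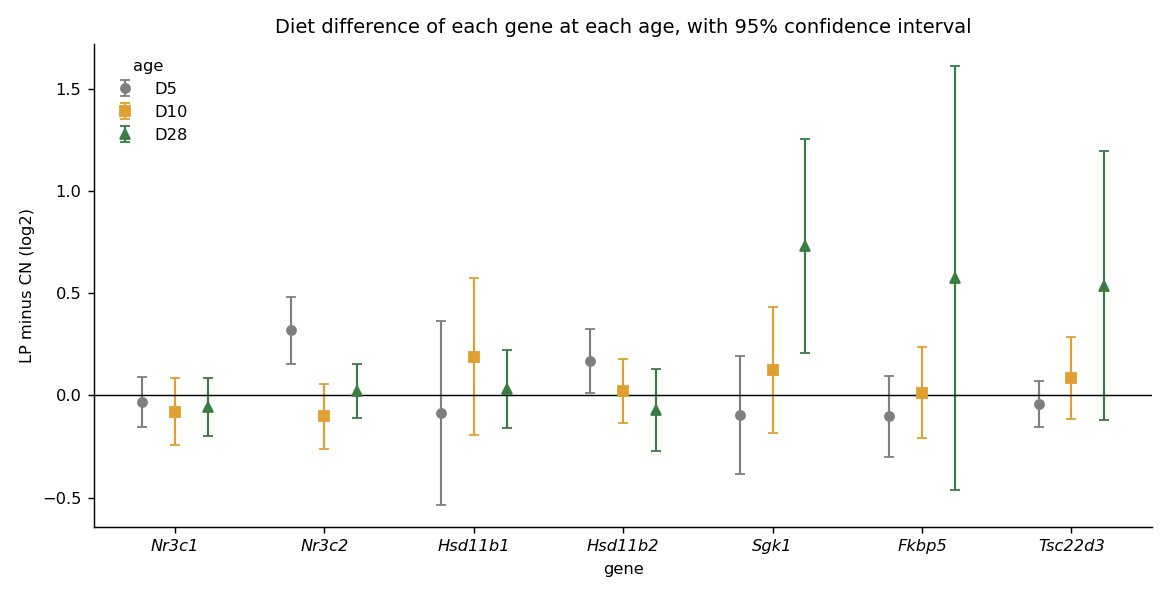
Log2 difference LP minus CN (vertical axis) of each gene (horizontal axis) at D5, D10 and D28, with the 95% confidence interval from limma on 5 LP and 5 CN arrays. The interval excludes 0 for Nr3c2 and Hsd11b2 at D5 and for Sgk1 at D28, and is widest for Fkbp5 at D28 (−0.46 to 1.61).

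Nr3c2 was higher in D5-LP than in D5-CN. The D5-LP arrays had 8.65, 8.69, 8.66, 8.67 and 8.46, against 8.50, 8.37, 8.10, 8.31 and 8.23 in the D5-CN arrays. All 5 LP arrays lay above the CN mean, and only D5-LP replicate 5 fell below the highest CN array. The difference was 0.32 ± 0.08 (SE, 1.25-fold), with limma p = 0.00119 and adjusted p = 0.347, and the exact permutation test over the 252 splits gave p = 0.0159 (2-sided, smallest possible p = 0.00794). With all 30 arrays in 1 fit the adjusted p was 0.166, and the rank product false discovery rate was 0.115. In the same arrays the mean of 4 red blood cell markers was 9.51 to 9.71 in D5-LP and 9.24 to 9.47 in D5-CN, which do not overlap. That of 4 thick limb markers was 10.7 to 10.9 in D5-LP and 10.5 to 10.8 in D5-CN. The mean of 5 collecting duct principal cell markers was 9.51 to 9.75 in D5-LP and 9.31 to 9.59 in D5-CN. That of 4 distal convoluted and connecting tubule markers was 9.28 to 9.46 in D5-LP and 9.14 to 9.51 in D5-CN. The part of these in the D5 differences of Nr3c2 and Hsd11b2 was not tested. At D10 Nr3c2 differed by −0.10 ± 0.07 and at D28 by 0.02 ± 0.06. The diet by age contrast of D10 against D5 was −0.42 ± 0.10 (limma adjusted p = 0.787) and that of D28 against D5 −0.30 ± 0.10 (limma adjusted p = 1.000), and 0% of all probe sets and 0 of the 7 genes were called in either contrast or in D28 against D10. At an unadjusted p under 0.05 the counts of the 7 genes in these contrasts were 1, 3 and 1, beside 4.64%, 4.35% and 3.7% of all probe sets.

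Hsd11b2 at D5 was 11.42, 11.44, 11.45, 11.32 and 11.41 in LP, against 11.39, 11.41, 11.18, 11.03 and 11.19 in CN. All LP arrays lay above the CN mean, while 2 CN arrays reached the LP range. The difference was 0.17 ± 0.07 (limma p = 0.0392, adjusted p = 0.588, exact permutation p = 0.0556), and 0.02 ± 0.07 at D10 and −0.07 ± 0.09 at D28.

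Sgk1 at D28 was the single gene of the 7 whose lead probe set separated the diets. The D28-LP arrays had 12.52, 12.59, 12.31, 12.34 and 12.17, against 10.76, 12.13, 11.30, 12.02 and 12.07 in the D28-CN arrays. The lowest LP array, replicate 5, stood just above the highest CN array, replicate 2, and the CN arrays were spread over a much wider range. At D28, 1 of the 7 genes did not overlap between diets, beside 0.857% of all probe sets, and at D5 and D10 the counts were 0 and 0, beside 1.48% and 1.11%. The difference was 0.73 ± 0.24 (SE, 1.66-fold, 95% confidence interval 0.21 to 1.25), with limma p = 0.0104, adjusted p = 0.770 and exact permutation p = 0.00794, the smallest the design allows. The rank product false discovery rate was 0.00162. Without D28-CN replicate 1 the difference was 0.51, and without both that array and D28-LP replicate 5, a choice made after seeing the values, 0.56. D28-CN replicate 1 also had the lowest medulla minus cortex score, −1.08. In LP at D28 this score was 0.36 higher and the mean of 5 collecting duct principal cell markers 0.33 higher. The part of these in the Sgk1 difference was not tested further. The diet difference of Sgk1 at D28 exceeded that at D5 by 0.83 ± 0.27 (limma adjusted p = 1.000).

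Fkbp5 and Tsc22d3 leaned the same way at D28 with overlapping groups. Fkbp5 differed by 0.58 ± 0.47 (limma adjusted p = 0.790, exact permutation p = 0.365) and Tsc22d3 by 0.54 ± 0.30 (adjusted p = 0.770, exact permutation p = 0.143), with 4 of 5 LP arrays above the CN mean for each. Single arrays decided these sizes. Without D28-CN replicate 1 the differences were 0.27 for Fkbp5 and 0.24 for Tsc22d3, without D28-LP replicate 5 they were 0.94 and 0.69, and without both 0.64 and 0.39. Without D28-CN replicate 5 the Fkbp5 difference was 0.87. With that score of medulla against cortex added to the fit they were 0.28 and 0.32, and the part of that score in the result was not tested further. The other Fkbp5 probe set differed by 0.38 ± 0.44.

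Nr3c1, Hsd11b1 and the targets at the earlier ages stayed close between diets. Nr3c1 differed by −0.03, −0.08 and −0.05 at D5, D10 and D28, with 95% confidence intervals within −0.24 and 0.09. Hsd11b1 differed by −0.08 (−0.54 to 0.37), 0.19 (−0.19 to 0.57) and 0.03 (−0.16 to 0.22) at the 3 ages. Sgk1, Fkbp5 and Tsc22d3 differed by −0.10 to 0.13 at D5 and D10. The dim Nr3c1 probe set was an exception at D10, where it was 5.20, 5.49, 5.38, 5.36 and 5.05 in LP, against 4.91, 5.00, 4.94, 4.89 and 5.03 in CN, groups that do not overlap. Its difference was 0.34 ± 0.08 (limma adjusted p = 0.948, exact permutation p = 0.00794, rank product false discovery rate 0.198, which passed), opposite in sign to the bright probe set.

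Further genes of the pathway were taken from lists of known responses, with each gene at its brightest probe set. Of 20 glucocorticoid-responsive genes 17 were measured, none of them among the 7 genes. At D28 all 17 were higher in LP, with a median difference of 0.38 beside −0.01 over all probe sets, and 0 were called at an adjusted p under 0.2. The count of 17 holds small differences and a dim probe set. Tat, at a mean of 4.20 over the 30 arrays, was 4.11 to 4.42 in D28-LP and 4.05 to 4.52 in D28-CN. Pck1 was 13.3 to 13.6 in D28-LP and 13.2 to 13.6 in D28-CN. The medulla minus cortex score was 0.36 higher in LP at D28, and the mean of 5 collecting duct principal cell markers was 9.34 to 10.3 on the LP arrays and 9.11 to 9.74 on the CN arrays (difference 0.33), and the part of these in the list was not tested. By limma 4 had an unadjusted p under 0.05, beside 6.09% of all probe sets, namely Nfkbia, Dusp1, Cebpd and Klf15, which are named after their values were seen. Nfkbia, the inhibitor of NF-kappaB, was 10.73, 11.07, 11.18, 11.19 and 10.46 in D28-LP, against 9.71, 10.99, 9.68, 9.96 and 10.31 in D28-CN, so that D28-CN replicate 2 reached the LP range. Its difference was 0.80 ± 0.24 (limma adjusted p = 0.770).

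The mean of the 17 genes was 9.79, 9.93, 10.14, 10.17 and 9.70 on the D28-LP arrays, against 9.37, 9.99, 9.19, 9.37 and 9.90 on the D28-CN arrays. D28-CN replicates 2 and 5 thus lay within the LP range, and replicates 1, 3 and 4 lay below it. On the same arrays the medulla minus cortex score was −0.79, −0.29, 0.54, 0.15 and −0.53 in LP, against −1.08, 0.21, −0.57, −0.71 and −0.59 in CN. In both groups the highest arrays for the list, D28-LP replicates 3 and 4 and D28-CN replicate 2, were also the highest for the score. Other arrays did not follow: D28-CN replicate 5 was nearly as high for the list, at 9.90, with a score of −0.59. D28-CN replicate 3 was the lowest for the list, at 9.19, while only D28-CN replicate 2 exceeded its score of −0.57 in CN. The relation of the list with the score was not tested. Without D28-CN replicate 1 the count was 16 higher and 1 lower with a median of 0.32, and without both low arrays 16 and 1 with a median of 0.37. Leaving out any other single D28 array gave 16 or 17 higher and a median of 0.27 to 0.57.

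**Figure D5:**
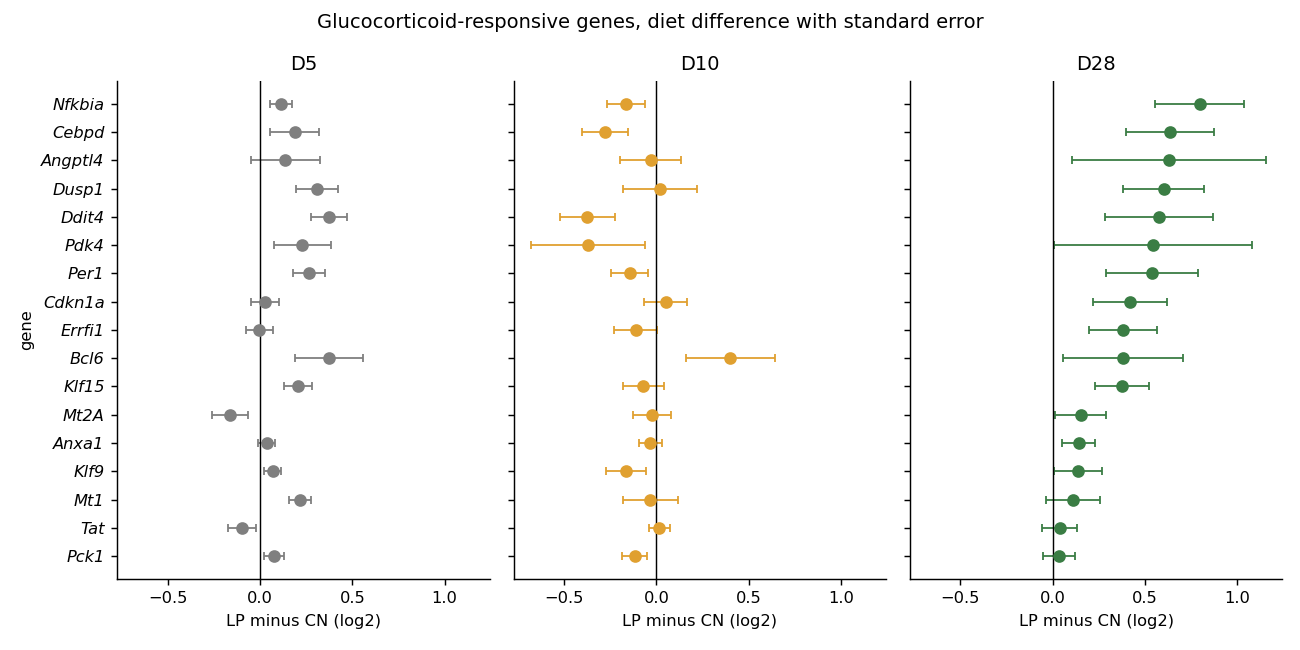
Log2 difference LP minus CN (horizontal axis) with its standard error for each of 17 glucocorticoid-responsive genes (vertical axis) at D5, D10 and D28, 5 LP and 5 CN arrays each. At D28 all 17 points lie above 0, at D5 14 do and at D10 4 do.

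At D5, 14 of these genes were higher and 3 lower in LP with a median of 0.14, and at D10 4 were higher and 13 lower with a median of −0.07, with 0 called by limma at either age and 5 and 2 at an unadjusted p under 0.05 (8.19% and 5.02% of all probe sets). Ddit4, an inhibitor of mTORC1 signalling, had the smallest p of the list, at D5, where it was 7.73, 8.08, 8.06, 7.95 and 8.15 in LP, against 7.81, 7.55, 7.36, 7.73 and 7.66 in CN. Its difference was 0.37 ± 0.10 (limma adjusted p = 0.395), and it turned to −0.37 ± 0.15 at D10. With age in CN, D28 minus D5, 11 of the 17 were called higher and 3 lower, beside 29% and 35.6% of all probe sets. The largest rises were those of Bcl6, a transcriptional repressor, by 3.03 ± 0.28, and Klf9, by 2.02 ± 0.11, and the largest falls those of Angptl4 and Cdkn1a, by −0.96 ± 0.37 and −0.92 ± 0.15.

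Of 14 aldosterone-responsive genes of the distal nephron 12 were measured, and 0 were called for diet by limma at any age. At an unadjusted p under 0.05 there were 1, 2 and 0 at D5, D10 and D28, beside 8.19%, 5.02% and 6.09% of all probe sets. Of the 12 genes 11 were higher in LP at D5, 5 at D10 and 8 at D28, with medians of 0.14, −0.04 and 0.03. Ndrg2, a substrate of the Sgk1 kinase, had the smallest p, at D5 (0.15 ± 0.06, limma adjusted p = 0.563). With age in CN, 4 were called higher and 2 lower at D28 than at D5, beside 29% and 35.6% of all probe sets. Usp2 rose by 1.11 ± 0.19 and Scnn1a, the alpha subunit of the epithelial sodium channel, by 0.94 ± 0.16, while Scnn1b, its beta subunit, fell by 0.28 ± 0.10 and Ndrg2 by 0.18 ± 0.08.

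Receptor chaperones and coregulators gave 13 measured genes of 16, with 0 called for diet by limma. At an unadjusted p under 0.05 there were 0 at each age, beside 8.19%, 5.02% and 6.09% of all probe sets. Medians were 0.02, 0.01 and 0.07 at D5, D10 and D28. The smallest p was that of the corepressor gene Nrip1 at D5 (−0.12 ± 0.06, limma adjusted p = 0.637). With age in CN, beside 29% of all probe sets called higher and 35.6% lower, 2 were called higher, the coactivator gene Ncoa3 by 1.26 ± 0.18 and Ppp5c by 0.56 ± 0.06, and 6 lower, with Ppid at −0.52 ± 0.09 and Stip1 at −0.48 ± 0.11 the largest. Both Ppid and Stip1 encode cochaperones of Hsp90.

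Steroid supply and clearance gave 7 measured genes of 10, again with 0 called for diet by limma. At an unadjusted p under 0.05 there were 0 at each age, beside 8.19%, 5.02% and 6.09% of all probe sets. Akr1d1, a steroid reductase gene, had the smallest p (−0.09 ± 0.05 at D5, limma adjusted p = 0.696). With age in CN 5 were called higher and 1 lower, beside 29% and 35.6% of all probe sets. Abcb1a, a drug and steroid efflux pump, rose by 3.15 ± 0.24 and Sult1a1 by 1.48 ± 0.19, while Akr1d1 fell by 0.28 ± 0.06.

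Clock genes and immediate early genes were read beside the targets because both can move with handling and time of day, which the labels do not give. Of 11 measured clock genes 0 were called for diet by limma. At an unadjusted p under 0.05 there were 5, 2 and 0 at D5, D10 and D28, beside 8.19%, 5.02% and 6.09% of all probe sets. Medians were 0.18, 0.05 and 0.06 at these ages, and Nr1d1 had the smallest p (0.45 ± 0.10 at D5, limma adjusted p = 0.345). The clock gene mean at D28 was lowest on D28-CN replicate 1 (8.66) and D28-LP replicate 5 (8.74), the lowest arrays of their groups for the targets. It was 8.89 to 9.07 on the other D28 arrays, and its relation with the targets was not tested. With age in CN 8 of the 11 clock genes were called higher and 2 lower (29% and 35.6% of all probe sets). The rises were led by Nr1d1 (2.61 ± 0.21) and Hlf (2.32 ± 0.13), with falls in Cry1 (−0.85 ± 0.23) and Bmal1 (−0.67 ± 0.17). Of 9 immediate early genes 0 were called for diet by limma. At an unadjusted p under 0.05 there were 2, both at D28, beside 6.09% of all probe sets. Nr4a1 had the smallest p, at D28 (0.82 ± 0.30, limma adjusted p = 0.770). The mean of the 9 genes at D28 was 7.06 to 8.00 on the LP arrays and 6.92 to 8.43 on the CN arrays. The highest of all was D28-CN replicate 1, the array with the lowest targets. With age in CN 5 of the 9 were called higher and 0 lower (29% and 35.6% of all probe sets), with Fos (1.15 ± 0.51) and Junb (1.06 ± 0.15) the largest rises.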

How the data were processed

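The deposited table holds, for 30 GeneChip rat genome arrays of whole kidney, log2 values per probe set that the authors had normalized with R. The names of 3 further tables, 1 per age, give qFARMS, and their 30 array columns, which name no sample, and their columns of fold changes and rank product scores were not used. Of 31099 probe sets, 57 controls were left out and 31042 tested without filter, of which 20826 carried 1 gene symbol, 436 several and 9780 none. limma 3.58.1 in R 4.3.3 was run with lmFit and eBayes, 2-sided, on the 10 arrays of an age for diet and on all 30 arrays for contrasts of ages, with Benjamini-Hochberg adjustment over all probe sets tested. A fold is 2 to the power of the log2 difference. Exact permutation tests used the 252 splits of 5 against 5 arrays, and correlations 14400 permutations within groups. Rank products used 25 pairwise differences and 100 permutations of the values of each array over the probe sets. The limma fits and the rank products were first checked on simulated data, and the other tests were not. The number of arrays limits the precision.

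The 7 genes and the gene lists were chosen with earlier results of these data known, and the lists for the pathway are therefore no independent support. For each list the text names the gene with the smallest p for diet, unless one was called, and the 2 largest rises and falls called in D28 minus D5 of CN, and for each of the 7 genes the 3 most alike probe sets with 1 symbol. Any other gene was picked with its values known. Alternatives were quantile normalization, median centring, a filter on dim probe sets, trend and robust eBayes, array weights, the mean of all probe sets of a gene, the replicate number as a block, other sets of arrays in the fit, 2 covariates, the methods' t-test, rank products and each array left out.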

Additional observations from a re-analysis of the deposited data

Results flagged for a closer look

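In groups of 5 arrays, a sample whose gap to the nearest other array exceeded 0.71 of the range of the group was taken as standing apart. Chance gives about 1 in 20 groups, and 4 of 54 groups of these probe sets had such an array. Nr3c1 on D10-CN replicate 2 was 9.88, with the other 4 arrays at 9.58 to 9.64. Without this array neither the rise to D10 nor the fall to D28 of Nr3c1 in CN was called. The rise was also lost without D5-CN replicate 2, and the fall without D28-CN replicate 5. Nr3c2 on D10-CN replicate 1 was 8.70, with the others at 8.41 to 8.47. Nr3c2 on D5-LP replicate 5 was 8.46, with the others at 8.65 to 8.69, and without it the diet difference at D5 was 0.36. Tsc22d3 on D28-LP replicate 5 was 11.48, with the others at 12.17 to 12.36, and Fkbp5 was also lowest of its group there.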

How the results depend on the processing

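Among the 7 genes, the number called for diet by limma was 0 under each normalization, filter and fit tried and without any single array, with 1 exception. With all 30 arrays in 1 fit 1 gene, Nr3c2, was called at D5. The exact permutation test and the methods' t-test, each at a p under 0.05 with no adjustment over all probe sets, counted 1 gene at D5 and 1 at D28, and that t-test 0 after Benjamini-Hochberg adjustment. Rank products, at a false discovery rate under 0.2 over all probe sets, called 1 gene at D5 and 3 at D28, without weighing each gene's own spread between arrays. Between ages the counts without single arrays were 2 to 3 for D10 minus D5 in CN, 2 in LP, 6 to 7 for D28 minus D10 in either diet, 4 to 5 for D28 minus D5 in CN and 5 to 6 in LP.

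Of the values of single genes under an alternative, 41 were reversed and 1143 kept both direction and call. With the probe sets of a gene averaged, Nr3c1 was 0.13 for diet at D10, 0.015 at D28 and 0.031 for D28 minus D10 in CN, and the last was the only called value that reversed. With the medulla against cortex score added to the fit, the diet difference was 0.029 for Hsd11b1 at D5, −0.081 for Fkbp5 and −0.011 for Tsc22d3 at D10, and −0.015 for Nr3c2 and 0.015 for Hsd11b2 at D28. With the 3′ minus 5′ difference as a covariate it was −0.0033 for Nr3c2 and 0.0055 for Hsd11b2 at D28. Quantile normalization gave −0.0059 for Fkbp5 at D10, −0.0071 for Nr3c2 at D28 and 0.12 for Tsc22d3 in D10 minus D5 of CN, and median centring −0.0034 for Fkbp5 at D10 and 0.015 for Tsc22d3 in that contrast. Array weights gave −0.012 for Hsd11b1 at D28, −0.10 for Hsd11b1 and −0.069 for Sgk1 in D10 minus D5 of LP, and 0.040 for Tsc22d3 in D10 minus D5 of CN. Without D28-CN replicate 1 and D28-LP replicate 5 Nr3c2 was −0.016 at D28. The cause of these reversals was not tested. Without single arrays, diet differences that crossed 0 ranged over −0.063 to 0.0040 for Nr3c1, −0.23 to 0.054 for Hsd11b1 and −0.20 to 0.0071 for Sgk1 at D5, −0.016 to 0.074 for Hsd11b2 and −0.042 to 0.082 for Fkbp5 at D10, and −0.034 to 0.078 for Hsd11b1 at D28. D10 minus D5 ranged over −0.072 to 0.12 for Hsd11b1 and −0.085 to 0.075 for Sgk1 in LP and −0.073 to 0.045 for Tsc22d3 in CN.

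Replicate numbers did not pair the samples, since only 4 of 15 pairs of same-numbered arrays had deviations correlated above 0.1 (−0.705 to 0.649) and 2 of 15 correlated best with their own number. With the replicate number as a block the counts of the 7 genes stayed within 1.5 times, the diet difference of Nr3c2 at D5 had an adjusted p of 0.606, and the fall of Nr3c1 from D10 to D28 in LP was no longer called (adjusted p = 0.0559). The 5 arrays of a group bound the precision, and the spread of D28 leaves intervals wide for Fkbp5.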
